A study of Mus musculus with 114 samples.

Results

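The genes described here are 9 enzymes that adipocytes use to build triglyceride and to supply its glycerol backbone: Pck1, Gpd1, Gpam, Agpat2, Lpin1, Lpin2, Dgat1, Dgat2 and Mogat1. They were chosen by symbol from the 29132 genes of the expression table, and all 9 were among the 10343 genes that passed the filter on low expression. The cells were perigonadal adipocytes of male C57BL/6J mice, which from 6 weeks of age ate control chow (CD) or a diet that drew 60% of its calories from fat (HFD). Adipocytes were collected after 8, 20 or 34 weeks of diet, from 6 mice in each group and from 8 mice in the 34 week CD group, following a 6 hour fast. Each value is 1 mouse, whose technical replicates the authors had merged. The adipocytes were the floating fraction of collagenase-digested fat and were measured in bulk, so that fewer adipocytes and less of a transcript per adipocyte cannot be told apart. Age and time on diet rose together, so the effect of age was read only in the CD mice.

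Triglyceride is assembled on glycerol 3-phosphate by stepwise addition of fatty acids. Adipocytes make glycerol 3-phosphate from glucose, or from lactate and amino acids through the phosphoenolpyruvate carboxykinase Pck1. The latter route is known as glyceroneogenesis and serves re-esterification during fasting. Both routes end at the glycerol 3-phosphate dehydrogenase Gpd1. Gpam and Agpat2 add the fatty acids that give phosphatidate, lipins such as Lpin1 and Lpin2 remove its phosphate to give diacylglycerol, and Dgat1 and Dgat2 add the last fatty acid, while Mogat1 makes diacylglycerol from monoacylglycerol.

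The libraries held between 9275711 and 15480388 reads per mouse (median 12522298), so 1 read was worth 0.0646 to 0.108 CPM, the unit of the table, which scales each mouse to the same library total. At 8 weeks depth was 10562845 to 12611013 reads in CD and 13201234 to 15480388 in HFD. At 20 weeks it was 13091365 to 14292115 and 13159018 to 14961360, and at 34 weeks 9275711 to 12433584 and 10714545 to 12271651. Depth did not overlap between the diets at 8 weeks, between CD at 8 and 20 weeks, or between HFD at 8 and 34 weeks. There it cannot be told apart from diet or time, and its part was not tested. Adipocyte marker genes were abundant in every group, with summed levels between 22638 and 74541 CPM over 10 of 10 markers, and none was at 0. Macrophage markers were also present. Summed over the 11 of 12 markers in the table, they ran from 366 to 1773 CPM in CD and from 1107 to 3235 CPM in HFD at 8 weeks, from 974 to 3430 CPM and from 4633 to 9568 CPM at 20 weeks, and from 1159 to 12945 CPM and from 5367 to 16001 CPM at 34 weeks. None of these 11 was at 0 in all mice of a group. Summed markers of progenitors and fibroblasts ran from 270 to 2406 CPM, of mural cells from 35.3 to 520 CPM, of endothelium from 24.7 to 374 CPM, of mesothelium from 2.78 to 50.2 CPM and of hepatocytes from 1.77 to 37.8 CPM, while those of T cells, B cells and epididymis stayed at or under 1.16, 5.82 and 8.09 CPM. 1 mouse stood apart within its group: mouse 1 of the 20 week CD group had a mean log2(CPM + 1) over the macrophage markers of 7.13, against 3.26 to 4.72 in the other 5. Its gap to the next mouse was 0.625 of the group's range, which did not exceed the critical value of 0.625 used to flag a mouse. The members' diet differences at 20 weeks are given with and without this mouse.

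The sequence directly upstream of 3 members is shown because these genes followed different courses with diet and belong to different steps. Gpam was called lower in HFD at all 3 times and Pck1 at the later times only, while Agpat2 was not called until 34 weeks. The sequences are those of RefSeq on GRCm38.p6, which had promoter windows (250 bases before to 50 after a transcription start) for 6 of the 9 members, and only bases upstream of every annotated start were kept. Pck1 is shown at chr2:173152823-173153047 (plus strand), Agpat2 at chr2:26604418-26604667 (minus strand) and Gpam at chr19:55127320-55127488 (minus strand), 5′ to 3′ along the gene. Capitals mark the core of the cyclic AMP response element (TGACGT, on the opposite strand here) in Pck1 and overlapping GC boxes (GGGCGG) in Agpat2.
Pck1: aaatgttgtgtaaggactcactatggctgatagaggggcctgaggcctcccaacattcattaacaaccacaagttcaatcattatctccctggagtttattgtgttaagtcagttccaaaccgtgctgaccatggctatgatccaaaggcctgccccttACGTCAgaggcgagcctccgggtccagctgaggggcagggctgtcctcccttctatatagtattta
Agpat2: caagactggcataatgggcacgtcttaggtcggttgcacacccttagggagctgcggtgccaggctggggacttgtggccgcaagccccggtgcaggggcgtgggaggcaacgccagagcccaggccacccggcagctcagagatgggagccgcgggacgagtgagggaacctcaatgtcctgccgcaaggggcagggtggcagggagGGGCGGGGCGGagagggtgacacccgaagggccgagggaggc
Gpam: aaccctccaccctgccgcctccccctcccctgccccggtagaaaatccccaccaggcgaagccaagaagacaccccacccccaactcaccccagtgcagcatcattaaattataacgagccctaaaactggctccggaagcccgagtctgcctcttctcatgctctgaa
The element in Pck1 lay at -91 to -86 from the transcription start, and TGACGT was present on either strand in 7.51% of the 32851 promoter windows of the reference. A GC box was present in 35.7% of them. The other letters searched on both strands were AGGTCA, bound by nuclear receptors (16.3% of windows), CCAAT (37.4%), the E-box CACGTG (7.15%) and TATAAA (13.6%). None of these stood in the printed stretch of Gpam, but the same start had CCAAT at -74 to -70, past that stretch. Relative to the start, Lpin1 had AGGTCA at -74 to -69. Another Gpam start had AGGTCA at -196 to -191, TGACGT at -32 to -27 and a GC box at -16 to -11. Past the printed stretches, Pck1 had a GC box at -16 to -11 and Agpat2 had one at 24 to 29. Mogat1 had CCAAT at 24 to 28, and the windows of Lpin2 held GC boxes, CCAAT and an E-box. These matches describe letters only.

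Between diets, 5 of the 9 genes differed at 8 weeks, 6 at 20 weeks and 7 at 34 weeks (limma on log2(CPM + 1), adjusted p under 0.05 over all genes tested). Gpam, Dgat1 and Mogat1 were lower in HFD at all 3 times. Pck1 and Lpin1 were lower, and Lpin2 higher, at 20 and 34 weeks. Gpd1 and Dgat2 were higher at 8 weeks only, and Agpat2 was lower at 34 weeks only. Calls were frequent in all genes: 44.9%, 57.0% and 43.2% of those tested passed the same threshold at 8, 20 and 34 weeks, so 5 and 6 of 9 members called at 8 and 20 weeks were close to the background and 7 of 9 at 34 weeks were above it, with no test of the difference. By direction, 3, 5 and 6 members were lower, against 15.1%, 18.7% and 15.7% of all genes, and 2, 1 and 1 were higher, against 29.8%, 38.3% and 27.5%. The median difference of the 9 genes was -0.43, -0.83 and -0.82 on the log2 scale, beside 0.11, 0.14 and 0.07 for all genes. Among all called genes 66.3%, 67.1% and 63.6% were higher in HFD, and 49.8%, 46.1% and 50.1% when TMM factors were applied, which moved the median of all genes by -0.11, -0.19 and -0.09. The diets did not overlap for 2, 4 and 2 members, against 22.8%, 37.2% and 2.46% of all genes. Without CD mouse 1 of 20 weeks they did not overlap for 6 members at that time. The share of all genes without that mouse was not computed, so the 37.2% is not a background for these 6.

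**Figure D1:**
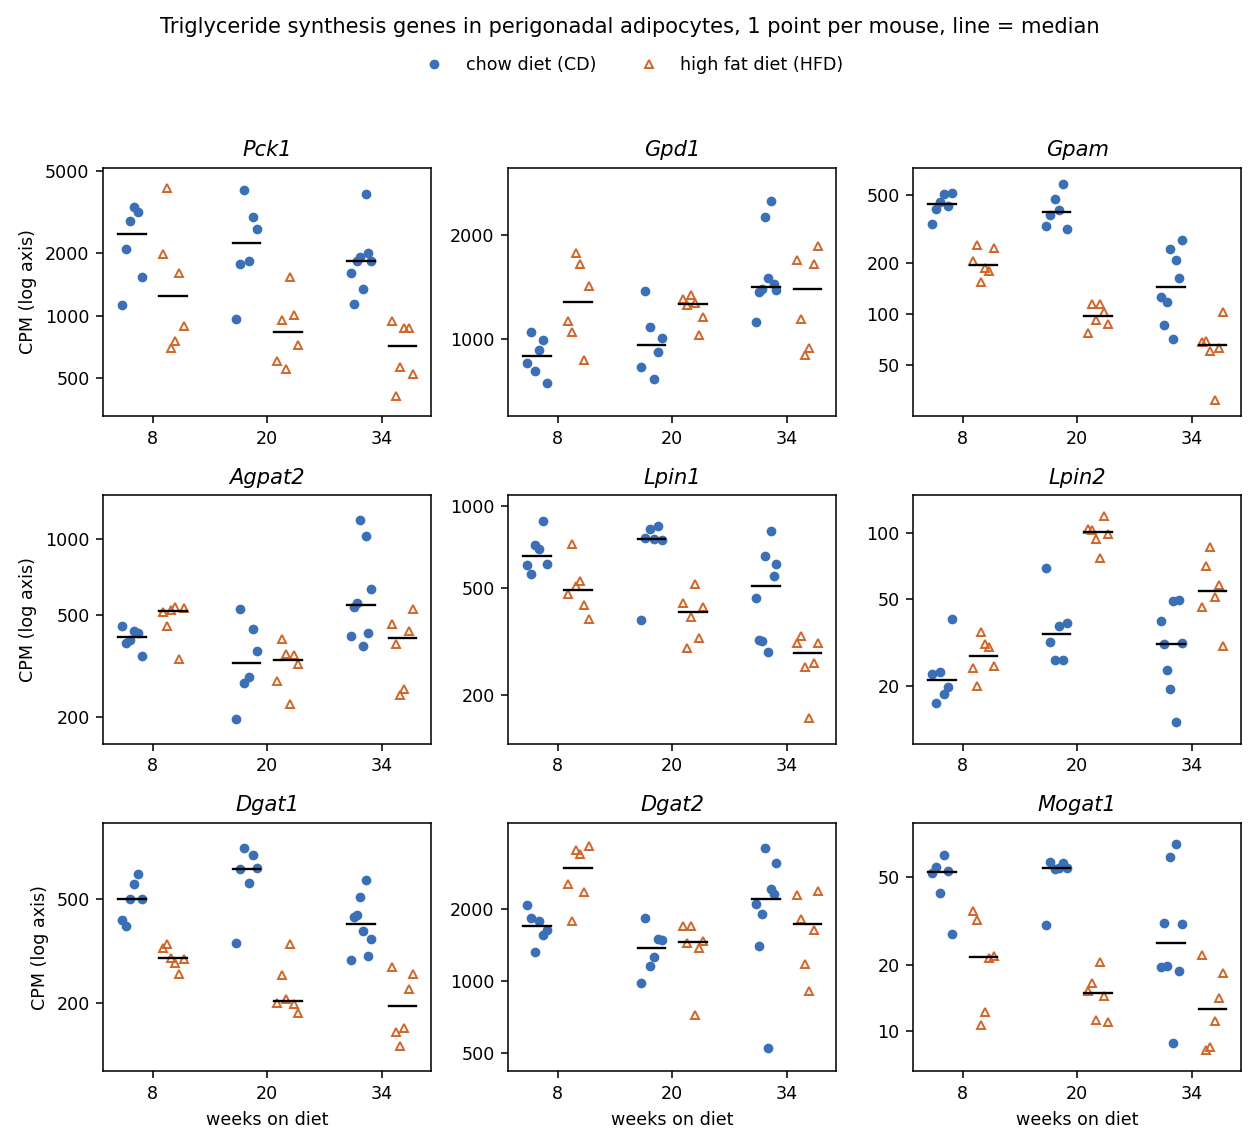
Expression of the 9 genes in CPM (log axis) against weeks on diet, with 1 point per mouse for CD (filled circles) and HFD (open triangles) and a line at each group's median. Gpam in HFD sits below every CD mouse at 8 and 20 weeks and declines in CD by 34 weeks, Dgat1 in HFD sits below every CD mouse at all 3 times, and Lpin2 in HFD sits above every CD mouse at 20 weeks.

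Pck1, the gene of glyceroneogenesis (chr2:173153073-173159274), was lower in HFD from 20 weeks on. At 8 weeks CD mice ran from 1131 CPM through a median of 2487 to 3346 CPM, and HFD mice from 697 through 1245 to 4138 CPM. The HFD group held both the lowest and the highest mouse of that time, and the difference of -0.69 (SE 0.37, adjusted p = 0.124) was not called. This rested on HFD mouse 2, the one at 4138 CPM: without it the difference was -1.02 (adjusted p = 0.017). By 20 weeks the CD mice spanned 968 to 4019 CPM (median 2233) and the HFD mice 552 to 1544 CPM (median 838), a fall of 1.35 on the log2 scale (SE 0.37, adjusted p = 0.0023). The 2 ranges touched only through CD mouse 1, the mouse at 968 CPM, and without it the difference was -1.58 (adjusted p = 0.000491). At 34 weeks the 8 CD mice lay between 1140 and 3859 CPM (median 1829) and the 6 HFD mice between 411 and 943 CPM (median 718), with no overlap and a 2.74-fold lower level in HFD (log2 difference -1.45, SE 0.35, adjusted p = 0.00133).

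Gpd1, which makes glycerol 3-phosphate from a glycolytic intermediate (chr15:99717587-99725014), was higher in HFD at 8 weeks. CD mice ran from 748 through 892 to 1050 CPM and HFD mice from 872 through 1276 to 1779 CPM, with 5 of 6 HFD mice above the CD mean (difference 0.52, SE 0.19, adjusted p = 0.0289). This call was near the threshold, and was lost with TMM factors (0.40, adjusted p = 0.0989) and when CD mouse 3 or 6 or HFD mouse 3, 4 or 6 of that time was left out (0.42 to 0.49, adjusted p = 0.0556 to 0.0934). At 20 weeks the levels were 765 to 1376 CPM in CD (median 961) and 1029 to 1345 CPM in HFD (median 1265), with overlap and a difference of 0.32 (SE 0.19, adjusted p = 0.151; 0.28 without CD mouse 1). A fit of the 20 week mice alone called this difference (adjusted p = 0.0458). At 34 weeks they were 1121 to 2510 CPM in CD (median 1419) and 898 to 1859 CPM in HFD (median 1396), a difference of -0.26 (SE 0.18, adjusted p = 0.246). The change in the diet difference from 8 to 34 weeks was called at -0.78 (SE 0.26, adjusted p = 0.0261).

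Gpam, the mitochondrial acyltransferase that opens the pathway (chr19:55067635-55127319), showed the largest fall among the 9 genes at 20 weeks. At 8 weeks it was at 336 to 517 CPM in CD (median 444) and 153 to 256 CPM in HFD (median 194), a fall of 1.13 (SE 0.25, adjusted p = 0.000558). At 20 weeks it was at 317 to 583 CPM in CD (median 396) and 76.9 to 114 CPM in HFD (median 96.8), which was 4.18-fold lower (log2 difference -2.06, SE 0.25, adjusted p = 8.07e-08; -2.12 without CD mouse 1). The diets did not overlap at either time. At 34 weeks the CD mice had spread to 70.9 to 274 CPM (median 144) and overlapped the HFD mice at 31.0 to 102 CPM (median 65.3), with a fall of 1.22 (SE 0.23, adjusted p = 0.00018). The mean of HFD at 34 weeks was 14.7% of the mean of CD at 8 weeks.

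Agpat2, which adds the second fatty acid and whose loss causes lipodystrophy (chr2:26593057-26604417), was not called between diets at 8 or 20 weeks and was lower in HFD at 34 weeks. The mice ran from 347 to 456 CPM in CD (median 412) and 338 to 538 CPM in HFD (median 520) at 8 weeks, and from 196 to 528 CPM (median 325) and 225 to 403 CPM (median 335) at 20 weeks. The differences were 0.23 (95% interval -0.25 to 0.72) and -0.06 (-0.55 to 0.42), the latter -0.21 without CD mouse 1. At 34 weeks CD mice were at 381 to 1189 CPM (median 551) and HFD mice at 244 to 532 CPM (median 409), a fall of 0.68 (SE 0.22, adjusted p = 0.0139). This call was lost in a fit of the 34 week mice alone (adjusted p = 0.0818) and without HFD mouse 3 (-0.56, adjusted p = 0.0572). 2 CD mice, 4 and 6, held the highest Agpat2 at 1189 and 1025 CPM and also the highest Gpd1 at 2255 and 2510 CPM. Their macrophage marker means of 4.92 and 4.505 were the lowest of the 8, and the part of that in these levels was not tested.

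**Figure D2:**
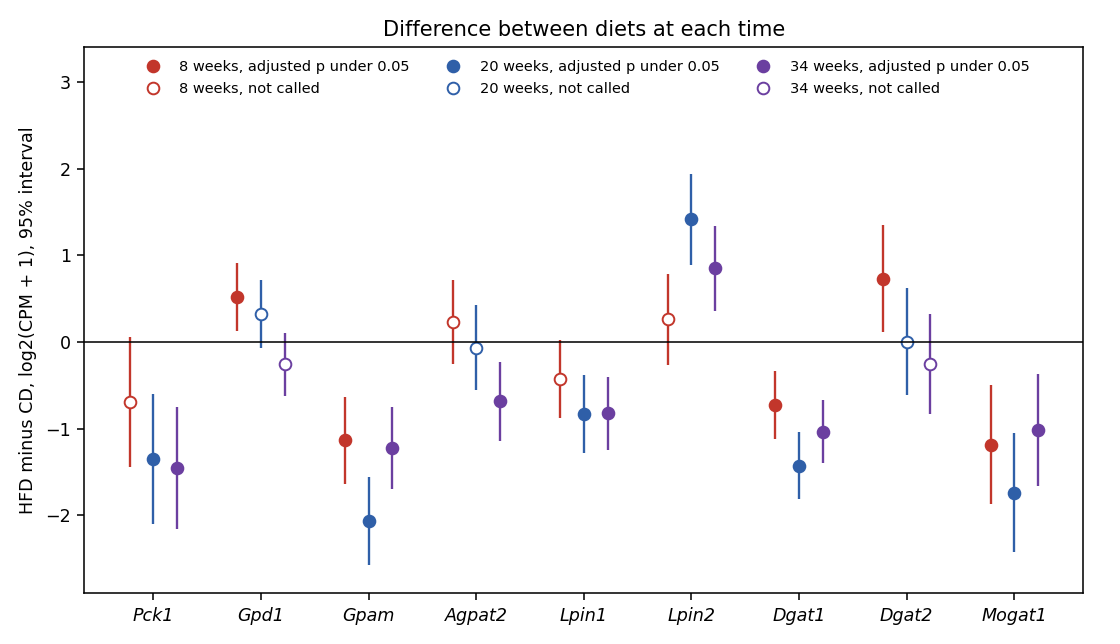
Difference between HFD and CD in log2(CPM + 1) for each gene at 8, 20 and 34 weeks, with 95% intervals from limma; filled points passed an adjusted p of 0.05. Gpam reached -2.06 at 20 weeks, Lpin2 rose at 20 and 34 weeks, and the intervals of Agpat2 at 8 and 20 weeks and of Dgat2 at 20 and 34 weeks crossed 0.

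The 2 lipins moved in opposite directions. Lpin1 (chr12:16535669-16653903), the main phosphatidate phosphatase of adipocytes, was at 559 to 879 CPM in CD (median 653) and 383 to 728 CPM in HFD (median 489) at 8 weeks, a difference of -0.43 (SE 0.22, adjusted p = 0.113), which a fit of the 8 week mice alone called (adjusted p = 0.0267). At 20 weeks it was at 378 to 846 CPM in CD (median 759) and 298 to 517 CPM in HFD (median 406), a fall of 0.83 (SE 0.22, adjusted p = 0.00193). Only CD mouse 1 overlapped the HFD mice: the other 5 lay between 752 and 846 CPM, and without mouse 1 the fall was 1.00 (adjusted p = 0.000164). At 34 weeks the levels were 289 to 812 CPM in CD (median 505) and 165 to 332 CPM in HFD (median 287), which overlapped, with a fall of 0.82 (SE 0.21, adjusted p = 0.00221).

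Lpin2 (chr17:71183532-71249818), a lipin of liver and of macrophages, had the lowest mean per length in each of the 6 groups and was higher in HFD at 20 and 34 weeks. It was at 16.6 to 40.4 CPM in CD (median 21.3) and 20.1 to 35.4 CPM in HFD (median 27.5) at 8 weeks, a difference of 0.26 (SE 0.26, adjusted p = 0.419). At 20 weeks CD mice lay between 26.2 and 69.3 CPM (median 34.6) and HFD mice between 76.3 and 118 CPM (median 101), without overlap and 2.67-fold higher in HFD (log2 difference 1.42, SE 0.26, adjusted p = 2.53e-05; 1.60 without CD mouse 1, which held the 69.3 CPM). At 34 weeks the levels overlapped, at 13.6 to 49.3 CPM in CD (median 31.1) and 30.5 to 86.3 CPM in HFD (median 54.3), with a rise of 0.85 (SE 0.24, adjusted p = 0.00548).

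Of the 2 enzymes of the final step, Dgat1 (chr15:76502012-76512021), linked to re-esterification of fatty acids released by lipolysis, was below every CD mouse in every HFD mouse at each time. At 8 weeks CD mice were at 394 to 627 CPM (median 501) and HFD mice at 258 to 338 CPM (median 296), a fall of 0.73 (SE 0.19, adjusted p = 0.00282). At 20 weeks the levels were 341 to 787 CPM (median 657) and 183 to 337 CPM (median 204), 2.69-fold lower in HFD (log2 difference -1.43, SE 0.19, adjusted p = 3.72e-07; -1.59 without CD mouse 1). At 34 weeks they were 291 to 593 CPM (median 403) and 136 to 274 CPM (median 194), a fall of 1.04 (SE 0.18, adjusted p = 6.98e-05).

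Dgat2 (chr7:99153663-99182713), linked to newly made fatty acids, did not follow Dgat1. At 8 weeks it was higher in HFD, at 1773 to 3669 CPM (median 2964) against 1317 to 2076 CPM in CD (median 1704), a difference of 0.73 (SE 0.30, adjusted p = 0.0493) with all 6 HFD mice above the CD mean. The call sat at the threshold: it was lost with TMM factors (0.62, adjusted p = 0.104), with edgeR on whole reads (0.64, adjusted p = 0.0677), with the mouse number as a block (adjusted p = 0.0531), and when any of 24 of the 38 mice was left out (0.65 to 0.75, adjusted p = 0.0504 to 0.107). HFD mice 3, 4 and 6 held the highest Dgat2 (3522, 3388 and 3669 CPM), the highest Gpd1 (1779, 1654 and 1426 CPM) and the lowest Pck1 (697, 756 and 890 CPM) of their group. Their macrophage marker means (6.99, 6.38 and 5.97) were also the highest of the 6, and the part of that in these levels was not tested. At 20 weeks Dgat2 was at 978 to 1840 CPM in CD (median 1371) and 716 to 1691 CPM in HFD (median 1452), and the difference was 0.00 (95% interval -0.61 to 0.62; -0.20 with TMM factors and -0.09 without CD mouse 1). At 34 weeks it was at 522 to 3588 CPM in CD (median 2207) and 906 to 2387 CPM in HFD (median 1723), a difference of -0.25 (-0.83 to 0.32). The diets overlapped at all 3 times.

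Mogat1 (chr1:78511060-78606964), the monoacylglycerol acyltransferase, was low in all mice and lower in HFD. The CD mice lay between 27.6 and 63.2 CPM (median 53.0) and the HFD mice between 10.7 and 35.2 CPM (median 21.8) at 8 weeks, a fall of 1.18 (SE 0.34, adjusted p = 0.0055). At 20 weeks the levels were 30.4 to 58.9 CPM (median 55.1) and 11.0 to 20.6 CPM (median 14.9), which did not overlap (difference -1.74, SE 0.34, adjusted p = 5.81e-05; -1.88 without CD mouse 1). At 34 weeks they were 8.81 to 70.8 CPM (median 25.3) and 8.22 to 22.1 CPM (median 12.6), a fall of 1.01 (SE 0.32, adjusted p = 0.0104), and 4 of the 8 CD mice (8.81, 18.8, 19.6 and 19.9 CPM) lay within the HFD range. That call was lost in a fit of the 34 week mice alone (adjusted p = 0.0722).

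**Figure D3:**
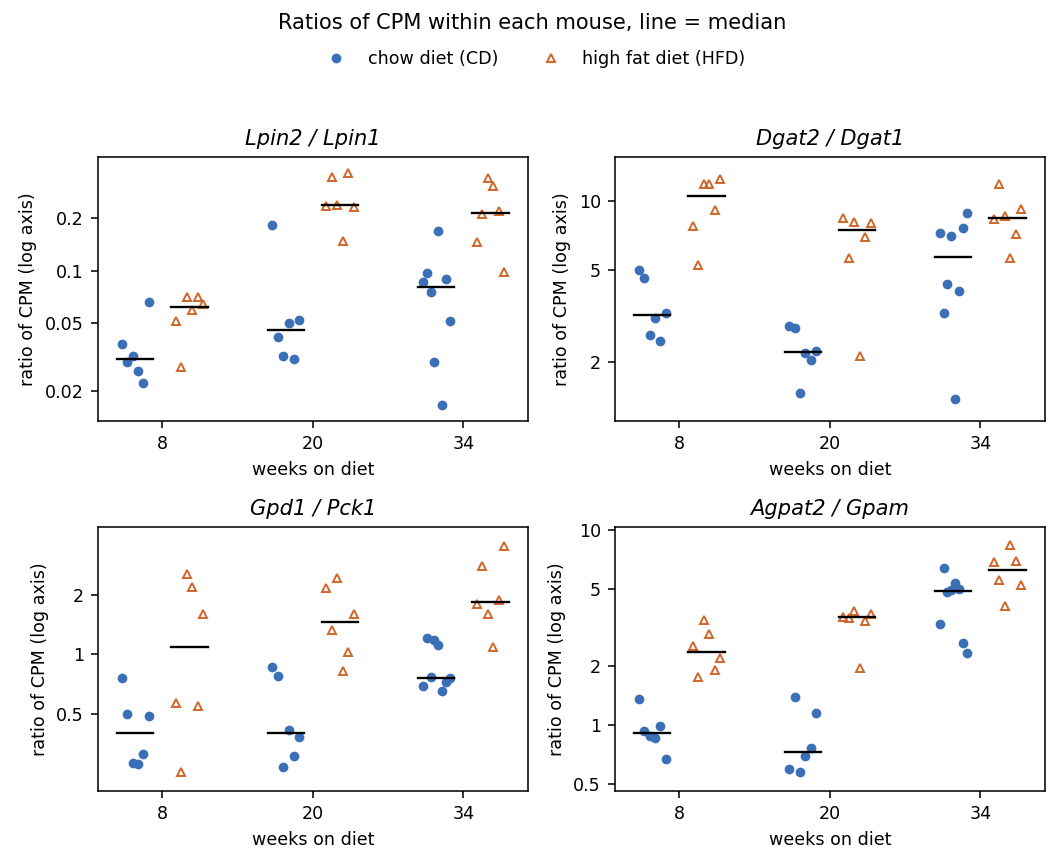
Ratio of CPM of 2 members within each mouse (log axis) against weeks on diet, for CD (filled circles) and HFD (open triangles), with group medians as lines; the pairs were chosen after their values were seen. The median of Dgat2 over Dgat1 is 3.18 in CD and 10.5 in HFD at 8 weeks, and that of Lpin2 over Lpin1 is 0.0455 in CD and 0.238 in HFD at 20 weeks.

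Within a mouse, ratios between members differed between groups, given here as a description because the pairs were chosen after their values were seen. The ratio of Dgat2 to Dgat1 (of CPM) was 2.47 to 5.00 in CD and 5.25 to 12.4 in HFD at 8 weeks, 1.47 to 2.87 and 2.12 to 8.46 at 20 weeks, and 1.38 to 8.85 and 5.64 to 11.8 at 34 weeks. Lpin2 to Lpin1 was 0.0309 to 0.183 in CD and 0.148 to 0.364 in HFD at 20 weeks, where only CD mouse 1 reached the HFD range. The diets also overlapped in this ratio at 8 weeks (0.0225 to 0.0661 and 0.0276 to 0.0701) and at 34 weeks (0.0168 to 0.168 and 0.0981 to 0.340). Gpd1 to Pck1 had a median of 0.40 in CD and 1.08 in HFD at 8 weeks, and of 0.76 and 1.84 at 34 weeks. Agpat2 to Gpam had medians of 0.904 and 2.36 at 8 weeks and 4.85 and 6.19 at 34 weeks, so this ratio also shifted with time in CD. The diets overlapped in it at 34 weeks (2.33 to 6.34 and 4.08 to 8.32). From 8 to 34 weeks the CD median also rose for Dgat2 to Dgat1 (3.18 to 5.70), Lpin2 to Lpin1 (0.0310 to 0.0804) and Gpd1 to Pck1 (0.40 to 0.76).

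Time on diet was compared within each diet against 8 weeks, and these comparisons share the 8 week mice. In CD at 20 weeks, 0 of the 9 members were called by limma or edgeR (1 at an unadjusted p under 0.05 by either tool), against 3.58% of all genes. In CD at 34 weeks, 5 members were called, against 64.7% of all genes. Gpam fell by 1.59 (SE 0.23, adjusted p = 8.32e-07) and Gpd1 rose by 0.81 (SE 0.18, adjusted p = 0.000232), and both calls were kept under each alternative run. Agpat2 rose by 0.55 (adjusted p = 0.0315), Lpin1 fell by 0.51 (adjusted p = 0.0311) and Mogat1 fell by 0.79 (adjusted p = 0.0282). Agpat2 lost its call without CD mouse 2 or 6 of 8 weeks or CD mouse 4 or 6 of 34 weeks (0.41 to 0.54, adjusted p = 0.0515 to 0.0893), with TMM factors (0.43, adjusted p = 0.11), with median-of-ratios factors (0.43, adjusted p = 0.114) and without a filter on low values (adjusted p = 0.052). Lpin1 lost it without CD mouse 3 or 5 of 8 weeks or CD mouse 2, 3 or 5 of 34 weeks (-0.49 to -0.41, adjusted p = 0.0546 to 0.0839) and without a filter (adjusted p = 0.0517). Mogat1 lost it without CD mouse 2, 4 or 5 of 8 weeks or CD mouse 1, 3, 5 or 7 of 34 weeks (-0.76 to -0.58, adjusted p = 0.0506 to 0.0824), with the mouse number as a block (adjusted p = 0.0637) and with edgeR (-0.67, adjusted p = 0.0824). With the macrophage marker mean as a covariate Mogat1 was called in the other direction (0.62, adjusted p = 0.0291).

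In HFD at 20 weeks against 8 weeks, 4 members were called, against 36.5% of all genes. Lpin2 rose by 1.81 (SE 0.26, adjusted p = 1.02e-05), Gpam fell by 1.04 (SE 0.25, adjusted p = 0.00177) and Dgat2 fell by 1.05 (SE 0.30, adjusted p = 0.00796). Agpat2 fell by 0.60 with an adjusted p of 0.0479, a call lost when any of 23 of the 38 mice was left out (-0.63 to -0.50, adjusted p = 0.0501 to 0.109) and with the mouse number as a block (adjusted p = 0.0579). In HFD at 34 weeks, 6 members were called, against 52.5% of all genes: Gpam fell by 1.68 (adjusted p = 3.8e-06), Lpin1 by 0.90 (adjusted p = 0.00104), Dgat1 by 0.62 (adjusted p = 0.0074), Dgat2 by 0.79 (adjusted p = 0.028) and Pck1 by 1.02 (adjusted p = 0.0201), while Lpin2 rose by 0.97 (adjusted p = 0.00229). Dgat2 lost this call without HFD mouse 3, 4 or 6 of 8 weeks or HFD mouse 3 or 4 of 34 weeks (adjusted p = 0.0544 to 0.0952), and Pck1 when HFD mouse 1 or 2 of 8 weeks or HFD mouse 2 of 34 weeks was (adjusted p = 0.0513 to 0.0933).

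Whether the diet difference itself changed between times was tested as an interaction. From 8 to 20 weeks 0 of the 9 members passed by limma or edgeR (3 at an unadjusted p under 0.05 by either), against 4.49% of all genes. Lpin2 changed by 1.16 (SE 0.37, adjusted p = 0.058), Gpam by -0.93 (SE 0.35, adjusted p = 0.095), Dgat2 by -0.72 (SE 0.43, adjusted p = 0.264) and Dgat1 by -0.70 (SE 0.27, adjusted p = 0.102). Without CD mouse 1 of 20 weeks, Lpin2 (1.34, adjusted p = 0.0157) and Dgat1 (-0.86, adjusted p = 0.0238) passed. Lpin2 also passed without HFD mouse 3 of 8 weeks, HFD mouse 4 of 20 weeks, CD mouse 5 or 6 of 34 weeks, or HFD mouse 6 of 34 weeks (1.16 to 1.34 over all 6 mice, adjusted p = 0.0157 to 0.049). From 20 to 34 weeks 0 members passed by limma or edgeR (2 and 1 at an unadjusted p under 0.05), against 10.5% of all genes, and the change of Gpam was 0.84 (SE 0.34, adjusted p = 0.101), which passed without CD mouse 8 or HFD mouse 4 of 34 weeks (0.97 and 1.04, adjusted p = 0.0355 to 0.048). From 8 to 34 weeks 2 members passed by limma and 3 by edgeR, against 28.8% of all genes by limma. By limma these were Agpat2 at -0.92 (SE 0.33, adjusted p = 0.0336) and Gpd1 at -0.78 (SE 0.26, adjusted p = 0.0261), while Dgat2 had a change of -0.98 (SE 0.42, adjusted p = 0.0713).

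Divided by the length of their exons, the members spanned a wide range of levels. In CD at 8 weeks the order of mean CPM per kilobase was Pck1 (688 ± 265, SD, n = 6), Dgat2 (550 ± 84.3), Gpd1 (303 ± 38.7), Agpat2 (192 ± 18.1), Dgat1 (164 ± 29.2), Lpin1 (70.2 ± 11.9), Gpam (66.7 ± 9.99), Mogat1 (31.6 ± 8.02) and Lpin2 (1.92 ± 0.706). The ranges of Pck1 and Dgat2 overlapped, as did those of Agpat2 and Dgat1 and those of Lpin1 and Gpam. Whether these neighbours differed within the same mice was not tested. In HFD at 20 weeks Dgat2 (453 ± 116 CPM per kilobase) and Gpd1 (415 ± 39.1) came before Pck1 (262 ± 107). Lpin2 (8.09 ± 1.14) then overlapped Mogat1 (9.54 ± 2.29), the gene next to it in the order.

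Predicted genes (Gm and digits, or names ending in Rik) were passed over here. The other genes whose log2(CPM + 1) varied most like a member over all 38 mice were named by Pearson r. For Gpam they were Kdsr (0.953), Cldn12 (0.948) and Scn7a (0.945), and for Agpat2 Ppp2r5a (0.935), Pmm1 (0.903) and Entpd6 (0.894). Lpin1 was closest to Cnst (0.908), Pde3b (0.908), which encodes a phosphodiesterase of insulin signalling, and Nudt12 (0.901). Lpin2 followed Ankrd33b (0.963), Eno2 (0.955) and Tnfrsf1b (0.955), the last a receptor for tumour necrosis factor. Dgat1 followed Mgst1 (0.948), Pex3 (0.94) and Sfxn1 (0.936), and Dgat2 followed Pnpla3 (0.864), Smpd1 (0.853) and Reep1 (0.841). Gpd1 was closest to Slc25a10 (0.915), Dlat (0.903) and Letm1 (0.882), Pck1 to Uck1 (0.898), Crls1 (0.893) and Chst1 (0.89), and Mogat1 to BC035947 (0.953), Gys1 (0.949), which encodes glycogen synthase, and Pccb (0.932). After the group means were taken out, the r of these genes lay between 0.758 (Scn7a) and 0.935 (Dlat). Among members, Dgat1 and Mogat1 had r = 0.866, and Gpam and Lpin1 had 0.868, whereas Lpin2 ran against Mogat1 at -0.714 and against Dgat1 at -0.686. With the group means taken out, these were 0.628, 0.681, -0.808 and -0.727. Each r is a description over mice that share groups, and depth differed between some groups.

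**Figure D4:**
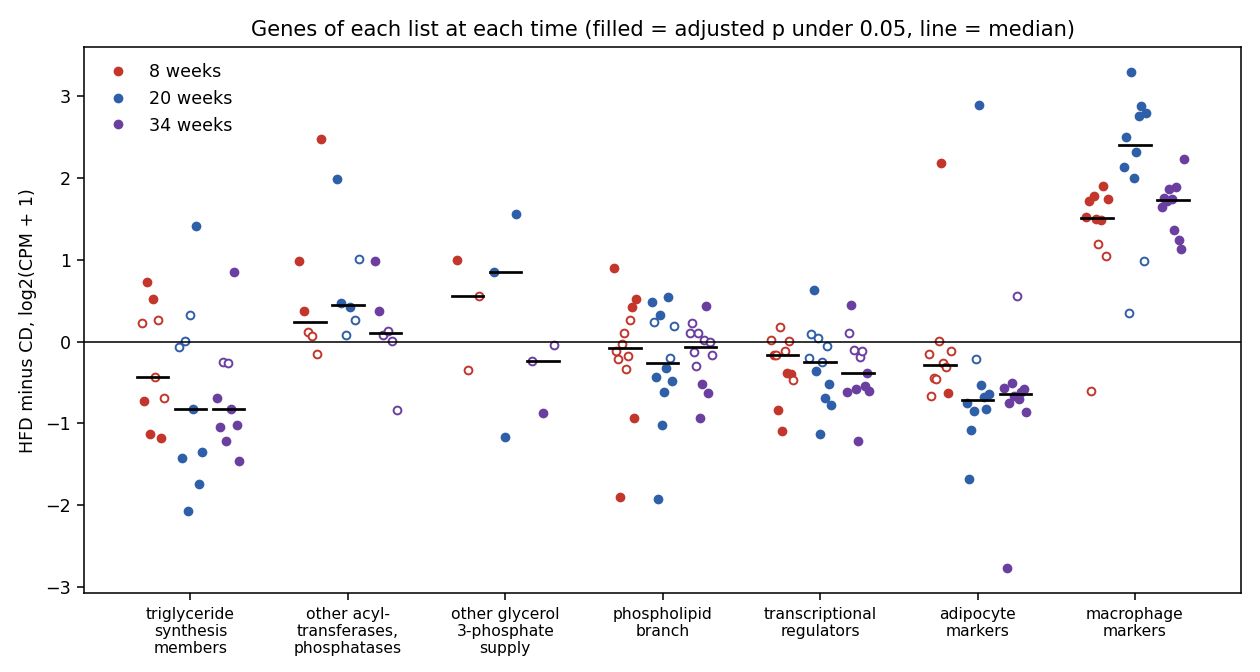
Difference between HFD and CD in log2(CPM + 1) for the genes of each list at 8, 20 and 34 weeks, with filled points past an adjusted p of 0.05 and a line at each list's median. The median of the 9 members is -0.83 at 20 weeks, beside 0.45 for the other acyltransferases and phosphatases, -0.72 for adipocyte markers and 2.41 for macrophage markers.

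Other genes of the pathway were read from lists chosen with earlier results of these data known. Of 14 other acyltransferases and phosphatases of triglyceride synthesis, 9 were in the table and 6 were tested. At 8, 20 and 34 weeks 3, 3 and 2 were higher in HFD and 0 were lower, with medians of 0.25, 0.45 and 0.11. Of all genes, 44.9%, 57.0% and 43.2% were called at these times, so the numbers called here were close to the background. By direction, 29.8%, 38.3% and 27.5% of all genes were higher and 15.1%, 18.7% and 15.7% lower, with no test of the difference. Mogat2, a second monoacylglycerol acyltransferase, rose by 2.47 at 8 weeks (SE 0.52, adjusted p = 0.00033), from 2.58 ± 0.619 to 25.5 ± 18.2 CPM (SD, n = 6 each). Its difference was 1.02 at 20 weeks (adjusted p = 0.0908) and -0.83 at 34 weeks (adjusted p = 0.158), and the change of the difference from 8 to 34 weeks was called (-3.31, SE 0.71, adjusted p = 0.000794). Agpat4, an acyltransferase of the Agpat family, rose at 20 weeks from 4.54 ± 3.26 to 19.2 ± 3.75 CPM (difference 1.99, SE 0.34, adjusted p = 8.34e-06), and by 0.99 and 0.98 at 8 and 34 weeks. Agpat5 rose at 20 weeks by 0.47 and at 34 weeks by 0.38.

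Of 8 other genes of glycerol 3-phosphate supply, 7 were in the table and 3 were tested. Aqp7, the glycerol channel of adipocytes, was above every CD mouse in HFD at 8 weeks (156 ± 17.4 against 77.7 ± 11.6 CPM, adjusted p = 6.45e-06) and at 20 weeks (118 ± 25.2 against 64.7 ± 8.16 CPM, adjusted p = 1.4e-05). Pdk4, a kinase that restrains pyruvate oxidation, rose at 20 weeks by 1.56 (adjusted p = 0.00411). At 34 weeks the differences were -0.24 for Aqp7 (adjusted p = 0.165) and -0.04 for Pdk4 (adjusted p = 0.954), and the change of the Aqp7 difference from 20 to 34 weeks was called (-1.08, SE 0.20, adjusted p = 0.00106). Pcx, pyruvate carboxylase, the step before Pck1 in glyceroneogenesis, fell by 1.17 at 20 weeks (2638 ± 668 CPM in CD and 1149 ± 123 CPM in HFD, adjusted p = 0.000279) and by 0.87 at 34 weeks (adjusted p = 0.00473).

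In the phospholipid branch, which shares phosphatidate and diacylglycerol with triglyceride synthesis, 12 of 13 genes were tested. At 8, 20 and 34 weeks 3, 3 and 1 were higher in HFD and 2, 6 and 3 lower, with medians of -0.07, -0.26 and -0.06. Of all genes, 29.8%, 38.3% and 27.5% were higher and 15.1%, 18.7% and 15.7% lower, with no test of the difference. Chka, a choline kinase, fell by 1.89 at 8 weeks (adjusted p = 0.000721) and by 1.92 at 20 weeks (adjusted p = 0.00028). Cds1, which draws phosphatidate into this branch, rose by 0.91 at 8 weeks (adjusted p = 5.98e-05), and by 0.48 at 20 weeks. Pgs1 fell by 0.93 and Ptpmt1 rose by 0.52 at 8 weeks, both enzymes of cardiolipin synthesis. Chpt1, a cholinephosphotransferase that uses diacylglycerol, fell by 1.02 and 0.93 at 20 and 34 weeks, Pcyt1a rose by 0.55 and 0.43, and Pcyt2 fell by 0.63 at 34 weeks.

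Among transcriptional regulators of these genes, 11 of 12 were tested. At 8, 20 and 34 weeks 0, 1 and 1 were higher in HFD and 4, 5 and 6 lower, with medians of -0.17, -0.25 and -0.38. The shares of all genes were 29.8%, 38.3% and 27.5% higher and 15.1%, 18.7% and 15.7% lower, with no test of the difference. Mlxipl, which encodes the glucose-responsive factor ChREBP, fell at all 3 times, by 1.09, 1.13 and 1.21. Srebf1, which encodes the lipogenic factor SREBP1, fell by 0.78 at 20 weeks (adjusted p = 0.00248) and Cebpa by 0.61 at 34 weeks (adjusted p = 0.0017). Crtc2, a coactivator of CREB, fell by 0.83 at 8 weeks. Creb1 rose by 0.63 at 20 weeks and 0.44 at 34 weeks.

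Macrophage markers, and at 20 and 34 weeks adipocyte markers, also differed between the diets. Their part in the members' differences was not tested beyond the fit given here. Of 10 macrophage markers tested, 7, 8 and 10 were higher in HFD at 8, 20 and 34 weeks and 0 were lower. Of 10 adipocyte markers 1, 8 and 9 were lower and 1, 1 and 0 higher, with medians of -0.29, -0.72 and -0.64. The shares of all genes were 29.8%, 38.3% and 27.5% higher and 15.1%, 18.7% and 15.7% lower. The mean log2(CPM + 1) over the macrophage markers ran from 3.18 to 4.76 in CD and 4.84 to 6.99 in HFD at 8 weeks, from 3.26 to 7.13 and 7.77 to 9.17 at 20 weeks, and from 4.505 to 8.57 and 8.00 to 9.52 at 34 weeks, so at 8 and 20 weeks it did not overlap between the diets and cannot be told apart from them. At 34 weeks only CD mouse 5, at 8.57, reached the HFD range, and the next CD mouse was at 7.34. There too this mean can hardly be told apart from the diets. With this mean as a covariate, 4, 0 and 0 members were called by limma (5, 4 and 2 at an unadjusted p under 0.05), and of all 10343 genes 3430 were called at 8 weeks, 430 at 20 weeks and 175 at 34 weeks. Gpam then had differences of -0.55 (adjusted p = 0.0736), -0.92 (0.0958) and -0.55 (0.271), and Dgat1 had -0.24 (0.291), -0.48 (0.246) and -0.48 (0.159). Lpin2 turned to -0.59 at 8 weeks, where it was called lower in HFD (adjusted p = 0.00918), -0.24 at 20 weeks and -0.13 at 34 weeks, and Mogat1 to 0.43 at 20 weeks. Agpat2 (0.80, adjusted p = 0.00826), Dgat2 (1.27, adjusted p = 0.00344) and Gpd1 (0.81, adjusted p = 0.00445) were called higher in HFD at 8 weeks in this fit.

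**Figure D5:**
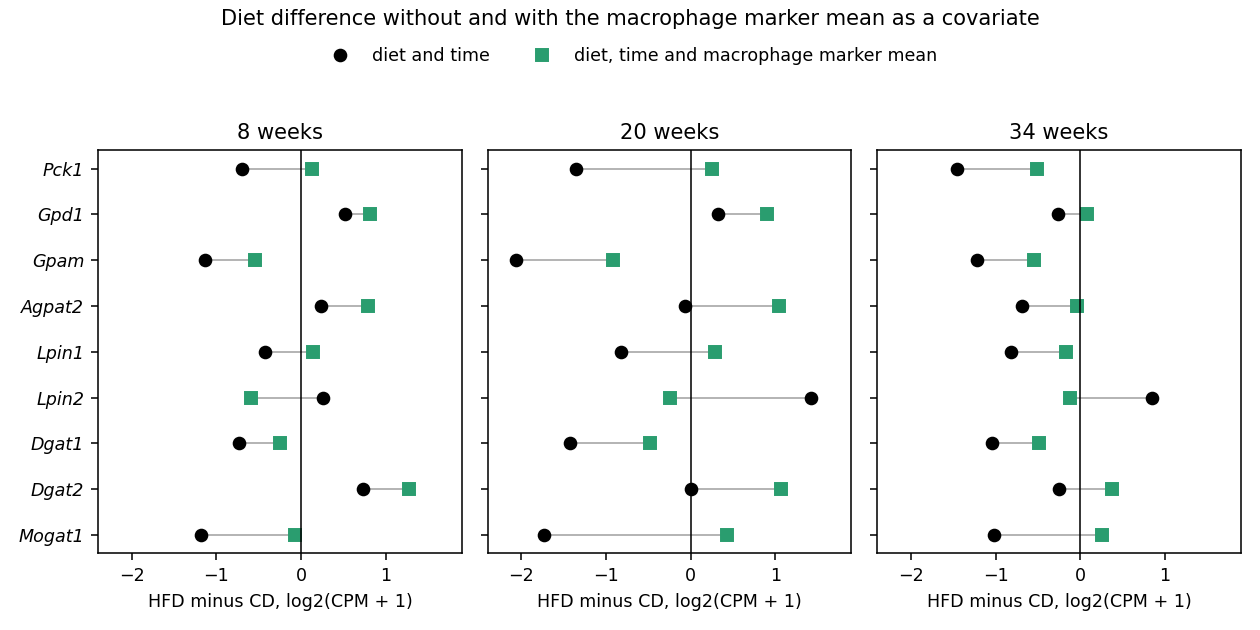
Difference between HFD and CD in log2(CPM + 1) for each gene and time, without (black circles) and with (green squares) the macrophage marker mean as a covariate. Gpam moves from -2.06 to -0.92 and Lpin2 from 1.42 to -0.24 at 20 weeks. Gpam and Dgat1 stay below 0 at all 3 times, but neither was called in the fit with the covariate.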

How the data were processed

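RNA of isolated perigonadal adipocytes was sequenced by the authors from stranded mRNA libraries, and the labels list 114 samples, 3 technical replicates of each of 38 mice. Per the paper's methods, reads were aligned to mm10 with STAR and counted by featureCounts on the exons of GENCODE vM2; the processing notes name STAR 2.5 and 2.5.2b and Subread 1.5.1. The values the authors deposited are CPM, 1 column per mouse with technical replicates merged. Each column summed to the same total, so that no TMM factor, which the methods state, was visible, and 100.0% of non-zero values were whole reads within 0.1 reads. Depth was 9275711 to 15480388 reads per mouse.

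Genes were tested with limma 3.58.1 (R 4.3.3) on log2(CPM + 1), 1 fit of all 6 groups with a mean-variance trend and 32 residual degrees of freedom, for the 10343 genes with a mean above 2.0, two-sided, with Benjamini-Hochberg adjustment over them and a threshold of 0.05. A log2 difference is on that scale and understates the change of low genes. Intervals are 95%. The scripts were tested on simulated data. Alternatives were a pseudocount of 0.5, no filter, TMM factors, median-of-ratios factors, edgeR 4.0.16 on whole reads, a replicate block, the macrophage marker mean as a covariate, the mice of a time alone, and each mouse left out. The members and lists were chosen with earlier results of these data known. The rule for named genes was all 9 members, up to 2 rises and 2 falls per list and time, and the 3 genes most alike per member. Predicted genes were passed over among the genes most alike. Exon lengths came from GENCODE vM21, which is not the annotation of the counts, and positions and promoters from RefSeq (GRCm38.p6). Symbols without a match in the table (8) were not analysed here. Figures were drawn with matplotlib.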

Additional observations from a re-analysis of the deposited data

Results flagged for a closer look

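7 of the 54 combinations of member and group held 1 mouse far from the others; chance flags about 1 in 20 groups. Mouse 1 of the 20 week CD group accounted for 3 of them: Lpin1 at 378 CPM against 752 to 846 in the others, Dgat1 at 341 CPM against 579 to 787, and Mogat1 at 30.4 CPM against 54.6 to 58.9. It also had the highest macrophage marker mean of its group, 7.13 against at most 4.72; the part of that in its values was not tested. In the 8 week HFD group Agpat2 was lowest in mouse 5, at 338 CPM against 453 to 538. In the 8 week CD group Lpin2 was highest in mouse 6, at 40.4 CPM against 16.6 to 23.1. In the 20 week HFD group Dgat2 was lowest in mouse 4, at 716 CPM against 1378 to 1691, and in the 34 week CD group Pck1 was highest in mouse 6, at 3859 CPM against 1140 to 2003.

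The diet difference changed between 8 and 34 weeks by an interaction test for Agpat2 (-0.92, adjusted p = 0.0336 by limma) and Gpd1 (-0.78, adjusted p = 0.0261). Both lost this call without a filter on low values (adjusted p = 0.0569 and 0.0509), and without HFD mouse 3 or 4 of 8 weeks or HFD mouse 3 or 4 of 34 weeks. Agpat2 also lost it without CD mouse 6 or HFD mouse 6 of 8 weeks or CD mouse 4 or 6 of 34 weeks. Over these mice the adjusted p was 0.0514 to 0.0763 for Agpat2 and 0.0524 to 0.0625 for Gpd1.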

How the results depend on the processing

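Of 315 values of 48 member results under alternatives other than the macrophage covariate, 286 kept their direction and side of the threshold, 24 lost a call, 2 gained one (Lpin1 at 8 weeks and Gpd1 at 20 weeks, each in a fit of that time alone) and 3 changed sign. Those 3 were Dgat2 at 20 weeks with TMM factors (-0.20), median-of-ratios factors (-0.17) and edgeR (-0.17). The number of members called at 8 weeks was 3 rather than 5 without a filter and with TMM factors, median-of-ratios factors or edgeR, as Dgat2 and Gpd1 lost their calls. Of all genes, 5147 of 21166 were called without a filter, and 4613, 4586 and 4521 of 10343 with TMM factors, median-of-ratios factors and edgeR. The main fit called 4648. Without a filter the number of members called was 3 rather than 5 in CD from 8 to 34 weeks. For the change of the diet difference from 8 to 34 weeks it was 0 rather than 2, and 1 with median-of-ratios factors. Of all genes 8141 and 3073 of 21166 were called in these 2 comparisons without a filter. With median-of-ratios factors 3004 of 10343 were called in the latter. TMM factors moved the median of all genes by -0.11, -0.19 and -0.09 at 8, 20 and 34 weeks, and the share of calls higher in HFD from 66.3%, 67.1% and 63.6% to 49.8%, 46.1% and 50.1%. With the macrophage covariate 15 of 48 values, called or not, kept their direction and side of the threshold. 0 members were called between diets at 20 and at 34 weeks, 2 in HFD from 8 to 20 weeks, 2 in HFD from 8 to 34 weeks and 2 for the diet difference from 20 to 34 weeks. In the same order, 430, 175, 262, 1807 and 1286 of 10343 genes were called with this covariate. The values that changed sign with it were, at 8 weeks, Lpin1 0.14, Lpin2 -0.59 and Pck1 0.13; at 20 weeks, Agpat2 1.04, Lpin1 0.28, Lpin2 -0.24, Pck1 0.26 and Mogat1 0.43; at 34 weeks, Lpin2 -0.13, Dgat2 0.37, Gpd1 0.0775 and Mogat1 0.26; in CD from 8 to 34 weeks, Lpin1 0.21 and Mogat1 0.62; in HFD from 8 to 20 weeks, Agpat2 0.13; and in HFD from 8 to 34 weeks, Lpin2 -0.24, Dgat1 0.0724 and Pck1 0.15. The cause was not tested. A fit of the 34 week mice alone called 2457 genes between diets rather than 4468. With each mouse left out in turn, the members called ranged from 3 to 6 at 8 weeks, 3 to 5 in CD from 8 to 34 weeks, 0 to 2, 0 to 1 and 0 to 3 for the diet difference from 8 to 20, 20 to 34 and 8 to 34 weeks. In the same order, calls over 10343 genes ranged from 3750 to 4848, 6360 to 6761, 195 to 1310, 710 to 1575 and 2386 to 3629. The difference of Agpat2 at 20 weeks ranged from -0.21 to 0.0718 and that of Dgat2 from -0.0873 to 0.19. With the mouse number as a replicate block, 4, 6 and 7 members were called between diets, beside 4574, 5905 and 4520 of 10343 genes. Of 48 values, called or not, 45 kept their direction and side of the threshold. Dgat2 at 8 weeks, Mogat1 in CD at 34 weeks and Agpat2 in HFD at 20 weeks lost their call. The numbers did not pair the mice: the 90 same-numbered pairs had a median correlation of -0.068, the 510 others 0.0026, and 2 of 38 mice were closest to their own number. Mice 7 and 8 of CD at 34 weeks carry their own terms in that fit and do not enter its differences. The lowest read counts of a member in any mouse were 96 (Mogat1) and 161 (Lpin2), so counting error is largest for these.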
